A study of Homo sapiens with 6 samples.

Results

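NF-kB is a family of transcription factors that are held in the cytoplasm by IkB inhibitors until signals from cytokine receptors, pattern receptors or DNA damage lead to the breakdown of the inhibitor. The released dimers switch on chemokines, cytokines, adhesion molecules and survival genes, and also their own inhibitors, which closes a feedback loop. In myeloid cells these genes drive the inflammatory response, and SUMO, a small protein that is attached to other proteins, modifies several members of the pathway and many chromatin-bound regulators.

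The positions of SUMO-2/3 on chromatin were examined at 38 NF-kB and inflammatory response genes, taken from a list of names, out of 19812 coding genes. HL-60 is a human acute myeloid leukaemia line with promyelocytic features. The cells were mock-treated with water, or received 2 µM cytosine arabinoside (Ara-C), a nucleoside analogue, or 1 µM daunorubicin (DNR), an anthracycline, all for 2 h. SUMO-2/3 chromatin immunoprecipitation followed by sequencing (ChIP-seq) pooled 3 biological replicates into 1 library per condition, so each condition is 1 list of peak positions without a replicate check. A peak was counted for a gene when it touched the window from 2 kb upstream to 1 kb downstream of any transcription start site (TSS) of the gene, called the TSS window, or its body with 10 kb on both sides, called the gene window. A peak means that the signal passed a fixed threshold over at least 150 bp, and the lack of one does not show that the signal was absent. The lists give neither read numbers nor heights, so depth is unknown, and a difference in depth or scaling between libraries cannot be told apart from a difference between treatments.

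Reference sequence (hg19, plus strand) is shown for 1 TSS-window stretch of each gene whose TSS-window peaks hold a match to the NF-kB consensus, because the consensus describes the sequence that NF-kB dimers prefer. A further match in a second Ara-C peak of ICAM1 and another match at NFKB2, 3′ of the stretch given, are not shown. Capitals mark matches on either strand. The search found ICAM1 with 1 match in the stretch shared by the mock and Ara-C peaks (chr19:10381251-10381450), CXCL3 and BIRC3 with matches in peaks of the mock list (chr4:74904407-74904500 and chr11:102188001-102188214), TNFAIP3 with a pair of matches just before its TSS in a peak of the Ara-C list (chr6:138188301-138188350) and NFKB2 with overlapping matches in the mock and Ara-C peaks at its 5′ end (chr10:104153936-104153965).
ICAM1: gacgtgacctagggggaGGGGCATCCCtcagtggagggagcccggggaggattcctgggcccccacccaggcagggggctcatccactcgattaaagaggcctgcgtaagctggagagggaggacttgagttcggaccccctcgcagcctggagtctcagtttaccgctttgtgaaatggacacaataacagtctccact
CXCL3: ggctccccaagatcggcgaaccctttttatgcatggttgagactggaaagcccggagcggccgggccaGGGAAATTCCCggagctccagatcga
BIRC3: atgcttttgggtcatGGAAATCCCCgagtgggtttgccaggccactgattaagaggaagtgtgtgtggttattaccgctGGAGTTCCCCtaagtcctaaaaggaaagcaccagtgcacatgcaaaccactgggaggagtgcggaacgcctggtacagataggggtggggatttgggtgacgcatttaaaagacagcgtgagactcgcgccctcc
TNFAIP3: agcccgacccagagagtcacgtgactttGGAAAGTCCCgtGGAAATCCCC
NFKB2: cttccccctGGGGATCCCCCgcttcagaga

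The 5′ part of the NFKB2 peak is shown as well, because the study links SUMO-2/3 sites with the insulator protein CTCF. This upstream stretch (chr10:104153651-104153866, plus strand) holds no full match to the CTCF core consensus. It has 1 match with 1 mismatch, in capitals, which ends 27 bp before the 5′ end of the gene. The study mapped CTCF binding in HL-60 cells and reported CTCF together with a SUMO-2/3 peak at the most 5′ promoter of NFKB2. A consensus search does not measure binding, so the lack of a full match does not speak against CTCF there.
NFKB2 upstream: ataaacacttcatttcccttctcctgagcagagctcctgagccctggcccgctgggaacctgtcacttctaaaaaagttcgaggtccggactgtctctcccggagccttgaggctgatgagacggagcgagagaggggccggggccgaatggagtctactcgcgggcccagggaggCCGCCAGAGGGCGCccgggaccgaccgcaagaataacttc

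In mock-treated cells 15 of the 38 genes had a peak in the TSS window (39.5%, 95% Wilson interval 25.6 to 55.3). Among all coding genes the share was 25.3%, just below that interval. Under Ara-C 11 of the 38 genes had one (28.9%, interval 17 to 44.8), beside 30.8% of coding genes. Under DNR the number was 4 (10.5%, interval 4.17 to 24.1), beside 8.42%. The excess over coding genes was 14.2 percentage points in the mock list, while the differences under Ara-C (-1.9 points) and DNR (2.11 points) lay within counting error and changed sign under other gene or window definitions. In the wider gene window 28 genes had a mock peak (73.7%, interval 58 to 85, coding genes 65.0%), 33 had an Ara-C peak (86.8%, interval 72.7 to 94.2, coding genes 75.3%) and 17 had a DNR peak (44.7%, interval 30.1 to 60.3, coding genes 49.7%). The mock excess was smaller under some definitions. It was 6.19 points with peaks of at least 200 bp (9 genes, coding genes 17.5%), 8.37 points from 2 kb upstream to the TSS (11 genes, interval 17 to 44.8, coding genes 20.6%) 10 points within 500 bp of a TSS (11 genes, coding genes 18.9%) and 12.4 points at the 5′ end of each gene alone (13 genes, coding genes 21.8%), and in each of these the coding share lay inside the interval for the set. The intervals cover counting error only.

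**Figure D1:**
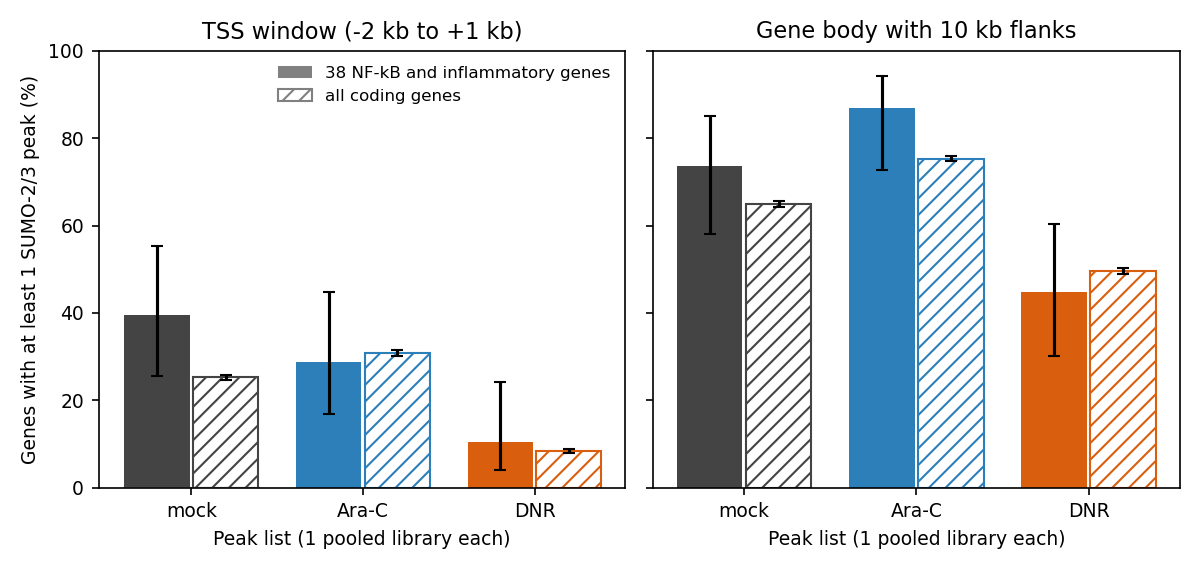
Percent of genes with at least 1 SUMO-2/3 peak in the TSS window (left) and in the gene body with 10 kb flanks (right), for the 38 NF-kB and inflammatory genes (filled) and all coding genes (hatched) in each list; error bars are 95% Wilson intervals. In the TSS window the filled mock bar is at 39.5% against 25.3%, and the Ara-C and DNR bars are close to those of all coding genes.

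The genes fell into a few patterns by the lists in which their TSS window held a peak. NFKB2, TRAF1 and PLAUR had one in all 3 lists, which is 7.89% of the set beside 2.49% of coding genes. NFKBIA, ICAM1, BCL3 and IER3 had one in mock and Ara-C (10.5%, coding genes 13.2%). NFKB1, TNFAIP8, TNIP1, CXCL3, LIF, CSF1, BIRC3 and CD83 had one in mock alone, which is 8 genes or 21.1% of the set, beside 8.5% of coding genes. NFKBIB, CXCL2 and MAP3K8 had one under Ara-C alone (7.89%, coding genes 13.6%), and TNFAIP3 had one under both drugs and none in mock (2.63%, coding genes 1.46%). The other 19 genes had none in any list (50%, coding genes 56.2%). No gene of the set had a TSS-window peak under DNR alone, a pattern of 3.46% of coding genes. These shares carry no interval and rest on 8 or fewer genes each apart from the last group of 19. Among the 8 genes with a peak in mock alone, NFKB1, TNIP1, CSF1 and CD83 had one of 150 bp, the least width called. Of all mock TSS-window peaks of the set 42.1% had this width, beside 36.4% for coding genes.

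Of the 15 genes with a mock TSS-window peak, 7 also had one under Ara-C (46.7%, interval 24.8 to 69.9, coding genes 62.3%) and 3 under DNR (20%, interval 7.05 to 45.2, coding genes 13.9%). Of the 23 genes without one, 4 had an Ara-C peak (17.4%, interval 6.98 to 37.1, coding genes 20.2%) and 1, TNFAIP3, had a DNR peak (4.35%, interval 0.772 to 21, coding genes 6.58%). Each coding share lay inside the interval for the set. At the level of single peaks, 5 of the 19 mock peaks in TSS windows overlapped an Ara-C peak (26.3%, interval 11.8 to 48.8), beside 36.3% for coding genes. None of the 19 overlapped a DNR peak, which allows a share of up to 16.8%, beside 4.18%. When a peak within 500 bp counted as found again, the DNR number was 3 of 19 (15.8%, coding genes 7.4%), so the direction against coding genes turned, and the Ara-C number was 9 of 19 (47.4%, coding genes 49.2%). The DNR peaks of NFKB2, TRAF1 and PLAUR did not overlap a mock peak in the TSS window, and that of PLAUR was adjacent to one.

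**Figure D2:**
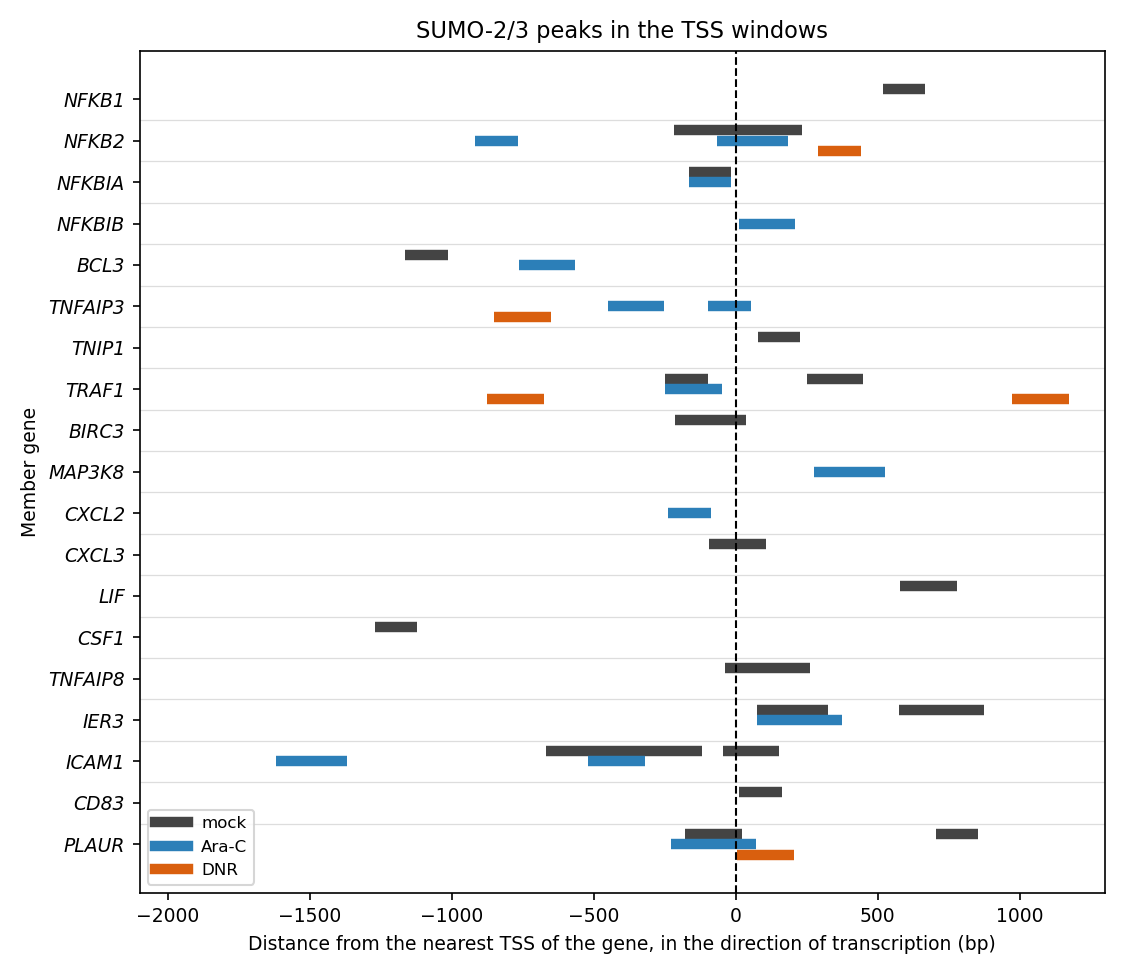
Position of each SUMO-2/3 peak in the TSS windows of the 19 genes that had one, as a bar from start to end in bp from the nearest TSS of the gene (upstream is negative); colours give the list. Mock and Ara-C bars overlie each other at NFKB2, NFKBIA, ICAM1, IER3 and PLAUR, and none of the DNR peaks drawn shares a base with a mock peak drawn; bars of 1 gene can be drawn from separate TSSs, so that the mock and Ara-C bars of TRAF1 and the ends of the mock and DNR bars of PLAUR overlie without a shared base.

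Among the DNA-binding subunits, NFKB2, which encodes the precursor of the subunit used in the non-canonical pathway, had the widest peak of the set that covered a TSS. Its mock peak was 450 bp wide (chr10:104153651-104154100) and covered the most 5′ TSS, with the midpoint 8 bp downstream of it. The Ara-C list had a peak of 250 bp inside it (chr10:104153801-104154050) and another of 150 bp whose midpoint lay at -842 bp. Distances are from the midpoint of a peak to the nearest TSS of the gene, which can be an internal one, and negative distances are upstream of that TSS. Under DNR no peak overlapped this place. A DNR peak of 150 bp was in the first part of the gene, in an intron 758 bp from the 5′ end (chr10:104154551-104154700). The mock and Ara-C peaks at the 5′ end share the overlapping NF-kB matches printed above. The gene window held 2 mock, 4 Ara-C and 2 DNR peaks.

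NFKB1, which encodes the precursor of the other processed subunit, had a mock peak of 150 bp in an intron, 593 bp from the nearest TSS. Its gene window held 2 mock, 4 Ara-C and 1 DNR peaks, and none of them overlapped between lists. REL, RELA and RELB, the subunits that carry the activating domain, had no TSS-window peak in any list. REL had 3 peaks in its gene window under Ara-C and none in the other lists. RELA had 2, 1 and 1 gene-window peaks and RELB had 2, 2 and 1, in mock, Ara-C and DNR, each 150 or 200 bp wide and none shared.

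Of the inhibitors and IkB-family proteins, NFKBIA, the main inhibitor in the feedback loop, had a peak of 150 bp at the same position in mock and Ara-C (chr14:35873001-35873150), with the midpoint at -90 bp from the TSS of a shorter transcript and inside an exon of the gene. No DNR peak lay there, and the DNR peak of the gene was 200 bp wide in an exon further downstream. BCL3, an IkB-like coactivator, had a mock peak of 150 bp and an Ara-C peak of 200 bp at different places, with midpoints at -87 and 338 bp from the 5′ end of the gene. It also had an intronic peak in the same place in mock (250 bp) and Ara-C (200 bp), and no DNR peak in its gene window. NFKBIB, another inhibitor, had 1 Ara-C peak of 200 bp, 110 bp from its TSS and also within 1 kb of a TSS of the neighbouring SIRT2. NFKBIE had 3 mock, 2 Ara-C and 1 DNR peaks outside the TSS window, with 1 mock and Ara-C overlap 3′ of the gene. NFKBIZ had 1 peak of 150 bp in mock and 1 in Ara-C, at different sites.

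The intronic BCL3 region is printed because its consensus match lies inside the stretch shared by mock and Ara-C (chr19:45256701-45256900, plus strand, match in capitals).
BCL3 intron: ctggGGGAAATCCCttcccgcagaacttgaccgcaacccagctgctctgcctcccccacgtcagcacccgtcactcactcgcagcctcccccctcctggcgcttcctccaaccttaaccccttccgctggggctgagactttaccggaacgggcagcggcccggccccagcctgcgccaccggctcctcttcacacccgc

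The signalling regulators include TRAF1, the gene with the most peaks over the 3 lists. TNFAIP3, the ubiquitin-editing enzyme known as A20 that ends NF-kB signalling, had no mock peak in its TSS window and a single mock peak of 250 bp 3′ of the gene. Under Ara-C it had 5 gene-window peaks, of which one of 200 bp at -351 bp and one of 150 bp across a TSS lay in the TSS window. Under DNR a peak of 200 bp lay at -751 bp and another of 150 bp was near the 3′ end. No 2 of these peaks overlapped between lists, so the TSS-window peaks of the drugs lay at separate places. TNIP1, a partner of that enzyme, had a mock peak of 150 bp at 152 bp from a TSS, and 4 mock, 5 Ara-C and 2 DNR peaks in its gene window. Its widest was an Ara-C peak of 500 bp upstream of the gene, which no mock or DNR peak overlapped.

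TRAF1, an adaptor of the tumour necrosis factor receptors, had 6 mock, 6 Ara-C and 3 DNR gene-window peaks. In its TSS windows the mock peaks were 200 and 150 bp wide, the Ara-C peak was 200 bp and the DNR peaks were 200 bp each, without any overlap. One mock peak and the Ara-C peak were nearest the same TSS, on either side of it, and both DNR peaks were nearest another one. A second region 3′ of the gene, with 200 bp in mock and 350 bp in Ara-C, had no DNR peak. One region 3′ of the gene was different, since it had a peak in all 3 lists that overlapped each other (chr9:123655101-123655500), with 400 bp in mock, 350 bp in Ara-C and 250 bp in DNR. Its midpoint lies 21550 bp from the nearest TSS of TRAF1 and no TSS of another coding gene lies within 1 kb, so position alone does not assign it to TRAF1. BIRC3, an inhibitor of apoptosis, had a mock peak of 250 bp that covered its TSS and held the matches shown above. It also had 2 Ara-C peaks at 24481 and 29556 bp from its TSS, the second of them near a TSS of the neighbouring BIRC2. MAP3K8, a kinase that acts with the NFKB1 precursor, had 1 peak in all, of 250 bp under Ara-C at 402 bp from a TSS.

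Because a stretch called in every list is rare in these genes, the bases shared by the 3 peaks downstream of TRAF1 are given (chr9:123655251-123655500, plus strand), together with those of the equivalent region 3′ of IER3 (chr6:30710701-30710900, plus strand). Neither holds a match to the NF-kB or the CTCF consensus, and all letters are therefore in lower case.
TRAF1 downstream: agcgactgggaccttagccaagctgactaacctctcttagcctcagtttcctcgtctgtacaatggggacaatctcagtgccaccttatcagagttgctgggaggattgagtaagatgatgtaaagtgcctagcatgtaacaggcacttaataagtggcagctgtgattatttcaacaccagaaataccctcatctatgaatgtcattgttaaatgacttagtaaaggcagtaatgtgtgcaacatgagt
IER3 downstream: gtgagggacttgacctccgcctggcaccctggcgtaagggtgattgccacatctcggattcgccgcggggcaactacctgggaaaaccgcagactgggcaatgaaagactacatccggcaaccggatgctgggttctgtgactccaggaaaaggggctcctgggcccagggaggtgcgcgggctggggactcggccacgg

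Chemokines attract leukocytes, and 1 of the 8 had a TSS-window peak in mock, 1 under Ara-C and none under DNR, beside 25.3%, 30.8% and 8.42% of coding genes. CXCL3 had a mock peak of 200 bp over its TSS, 6 bp from it at the midpoint, and no peak of either drug in its gene window. CXCL2 had an Ara-C peak of 150 bp at -163 bp and no other. CXCL8, the interleukin that attracts neutrophils, had no TSS-window peak, and a region upstream of it had a mock peak of 450 bp (midpoint at -8383 bp) and an Ara-C peak of 200 bp (midpoint at -8458 bp) that overlapped. CXCL1 had 1 mock peak of 200 bp and 1 DNR peak of 150 bp 3′ of the gene, and CXCL10, which attracts T cells and is induced by interferon, had 1 Ara-C peak of 150 bp at 12125 bp, near the TSS of ART3. The monocyte attractant CCL2 had 4 mock and 3 Ara-C peaks, with 1 overlap upstream (chr17:32575951-32576050), and no DNR peak. CCL4 had 1 mock peak of 200 bp, and CCL3, whose window overlaps that of CCL4, had none in any list. In all, 5 of the 8 chemokines had a gene-window peak in mock, 4 under Ara-C and 1, CXCL1, under DNR, beside 65.0%, 75.3% and 49.7% of coding genes. The chemokine genes are 1795 to 3198 bp long, against a median of 26977 bp for coding genes, so their windows are shorter. With 8 genes and shorter windows no difference from coding genes can be read.

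Of the 6 cytokine genes, 2 had a TSS-window peak in mock, where the coding share was 25.3%. LIF, a cytokine of the interleukin-6 family, had a mock peak of 200 bp in an intron at 678 bp, and CSF1, the macrophage growth factor, had a mock peak of 150 bp at -589 bp from its 5′ end. None of the 6 had one under Ara-C or DNR, where the coding shares were 30.8% and 8.42%, too few genes to read a difference. The gene window of LIF held 3 mock peaks, 3 Ara-C peaks and 1 DNR peak of 150 bp, in an exon. CSF1 also had 1 Ara-C peak, of 200 bp, 3′ of the gene.

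TNF and LTB, neighbours that encode tumour necrosis factor and lymphotoxin beta, share windows and peaks. Both windows held the same mock peaks of 250, 350 and 200 bp and the same Ara-C peaks of 450 and 700 bp, and the window of LTB held a further Ara-C peak of 150 bp. The Ara-C peak of 700 bp (chr6:31554101-31554800) was the widest in any gene window of the set, contained the mock peak of 350 bp and was near the TSS of LST1. The DNR list had no peak in either window. IL1B had 2 Ara-C peaks of 150 bp and IL6 had 1 of 150 bp, all outside the TSS windows, and neither gene had a mock or DNR peak.

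Of the survival and stress genes, IER3, an immediate early gene that affects apoptosis, had 3 mock, 6 Ara-C and 1 DNR peaks. Its TSS window held mock peaks of 300 and 250 bp and an Ara-C peak of 300 bp that overlapped the second of them, at 199 and 224 bp from the TSS. Its only DNR peak, 300 bp wide (chr6:30710701-30711000), was the widest DNR peak of the set and overlapped peaks of 300 bp in mock and 350 bp in Ara-C. A TSS of FLOT1 lies within 1 kb of this region. TNFAIP8, an apoptosis regulator, had a mock peak of 300 bp over a TSS that was met by no drug peak, and an intronic region with 200 bp in mock and 400 bp in Ara-C. SOD2, the mitochondrial superoxide dismutase, had 4 mock, 5 Ara-C and 3 DNR peaks over a long gene model that includes WTAP. Its only overlaps were a WTAP-side region of 300 bp in mock and 400 bp in Ara-C, and an upstream region of 150 bp in Ara-C and 250 bp in DNR. BCL2A1, a survival gene of the BCL2 family, had 1 Ara-C peak of 250 bp upstream.

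Among surface proteins and enzymes, ICAM1, the adhesion molecule for leukocytes, had the widest mock peak of the set. It was 550 bp wide (chr19:10381101-10381650), upstream of the TSS with the midpoint at -394 bp, and contained an Ara-C peak of 200 bp. A second mock peak of 200 bp covered a TSS, and a second Ara-C peak of 250 bp lay at -1494 bp. No DNR peak lay in the TSS window, and the gene had 1 DNR peak of 150 bp in an exon at 3879 bp. A region at the 3′ end of the gene, overlapping an exon and near ICAM4, had 250 bp in mock and 200 bp in Ara-C. PLAUR, the urokinase receptor, had overlapping mock (200 bp) and Ara-C (300 bp) peaks over its TSS, a second mock peak of 150 bp at 780 bp from an internal TSS, and an upstream region of 150 bp in both mock and Ara-C. The DNR peak of 200 bp (chr19:44174101-44174300) began inside the transcribed part and overlapped the Ara-C peak, and it ended at the base next to the mock peak without overlapping it. CD83, a marker of mature dendritic cells, had a mock peak of 150 bp at 88 bp and 5, 6 and 3 gene-window peaks in the 3 lists, all of 150 to 250 bp, with 1 overlap of mock and Ara-C 3′ of the gene. TNFAIP2, a gene induced by tumour necrosis factor, had 2, 3 and 2 gene-window peaks, none at a TSS, and PTGS2, the inducible cyclooxygenase, had none in any list.

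**Figure D3:**
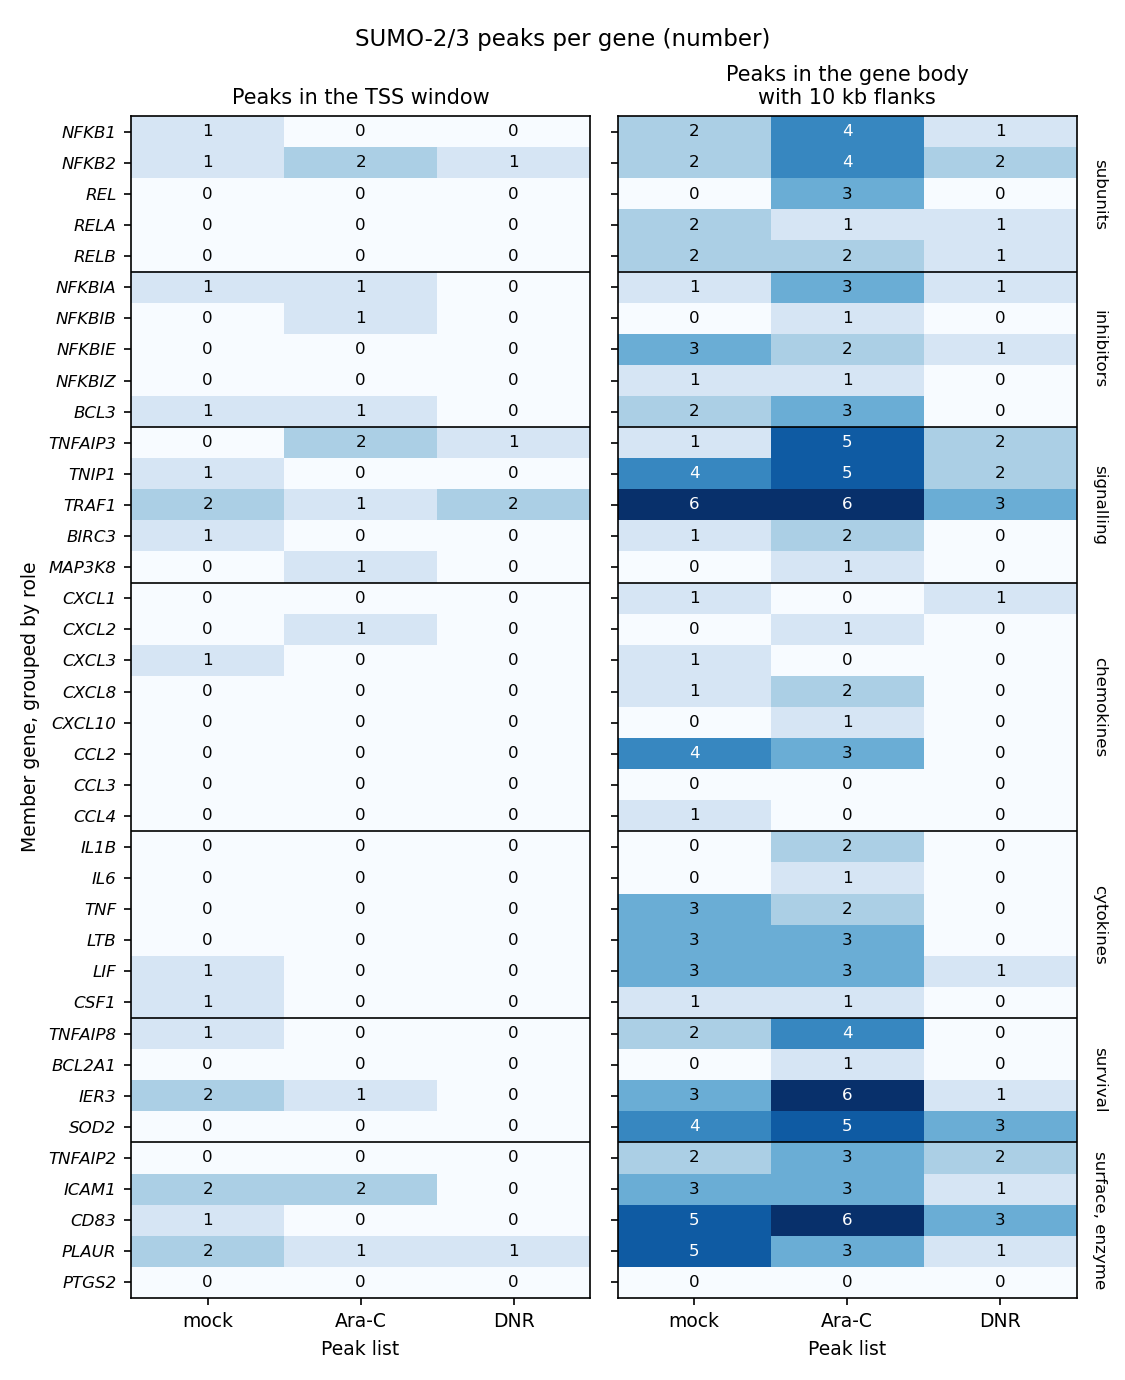
Number of SUMO-2/3 peaks per gene in the TSS window (left) and in the gene body with 10 kb flanks (right), one row per gene grouped by role and one column per list; darker cells hold more peaks. The 8 chemokines and the 6 cytokines had 1 gene each with a gene-window peak under DNR, CXCL1 and LIF, beside 49.7% of coding genes. TRAF1, CD83 and SOD2 had 3 DNR peaks each. Window length differs between genes (CXCL1 is 1916 bp long and SOD2 93461 bp), so the numbers cannot be compared between roles.

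Taking the gene windows together, 66 distinct mock peaks, 91 Ara-C peaks and 27 DNR peaks fell in them. Their density was 4.23 per 100 kb for mock (exact Poisson interval 3.27 to 5.38), 5.83 for Ara-C (4.69 to 7.15) and 1.73 for DNR (1.14 to 2.51). The windows of all coding genes had 1.85, 2.94 and 1.28 per 100 kb. The genes of the set are short, with a median length of 9343 bp against 26977 bp, and a gene of the set had on average 1.82, 2.45 and 0.711 peaks in mock, Ara-C and DNR, against 1.84, 2.83 and 1.19 for a coding gene. With 50 kb flanks the mock density was 4.23 against 1.78 per 100 kb. In the TSS windows, with a median of 3158 bp per gene of the set and 3056 bp per coding gene, it was 12.4 against 7.01 in mock, 9.11 against 8.97 under Ara-C and 3.26 against 2.18 under DNR. The part of gene length and of neighbouring promoters was not tested. Of the peaks outside TSS windows, 6 of 47 mock, 9 of 77 Ara-C and 1 of 22 DNR peaks were within 1 kb of a TSS of another coding gene.

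Peak width was compared over the gene windows, since it is the only measure of strength. A width of 300 bp or more was found for 12 of 66 mock peaks (18.2%, interval 10.7 to 29.1, coding genes 10.8%) and 14 of 91 Ara-C peaks (15.4%, interval 9.39 to 24.2, coding genes 8.77%). Under DNR 1 of 27 reached it (3.7%, interval 0.657 to 18.3, coding genes 4.78%), which is the IER3 region described above. The coding share lay inside the interval in mock, close to its lower edge, and below it under Ara-C, and the DNR share rests on 1 peak. In the TSS windows alone mean width was 226 bp in mock, beside 229 bp for coding genes.

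Overlap between lists was examined over the merged gene windows too. Of the 66 mock peaks, 20 overlapped an Ara-C peak (30.3%, interval 20.6 to 42.2), beside 18.2% for coding genes, and 2 overlapped a DNR peak (3.03%, interval 0.835 to 10.4), beside 3.05%. For Ara-C the direction was opposite in the TSS windows (26.3% against 36.3%). The mock gene-window peaks of the set were also more often 300 bp or wider (18.2% against 10.8%), and the part of width was not tested. Other settings were not tried for these gene-window shares. Merging the peaks of the lists gave 160 regions. Of these, 17 had mock and Ara-C peaks, 10.6% against 5.35% for coding genes, 3 had peaks of all lists, 1.88% against 0.568%, 1 had Ara-C and DNR peaks, 0.625% against 0.665%, and none had mock and DNR peaks alone, against 0.453%. The 3 regions with all lists are those of TRAF1, IER3 and PLAUR, and at PLAUR the mock and DNR peaks were adjacent without an overlap. A gene-window peak in every list was found for 16 genes (42.1%, coding genes 37.8%), and mock and DNR peaks overlapped at 2 of them.

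**Figure D4:**
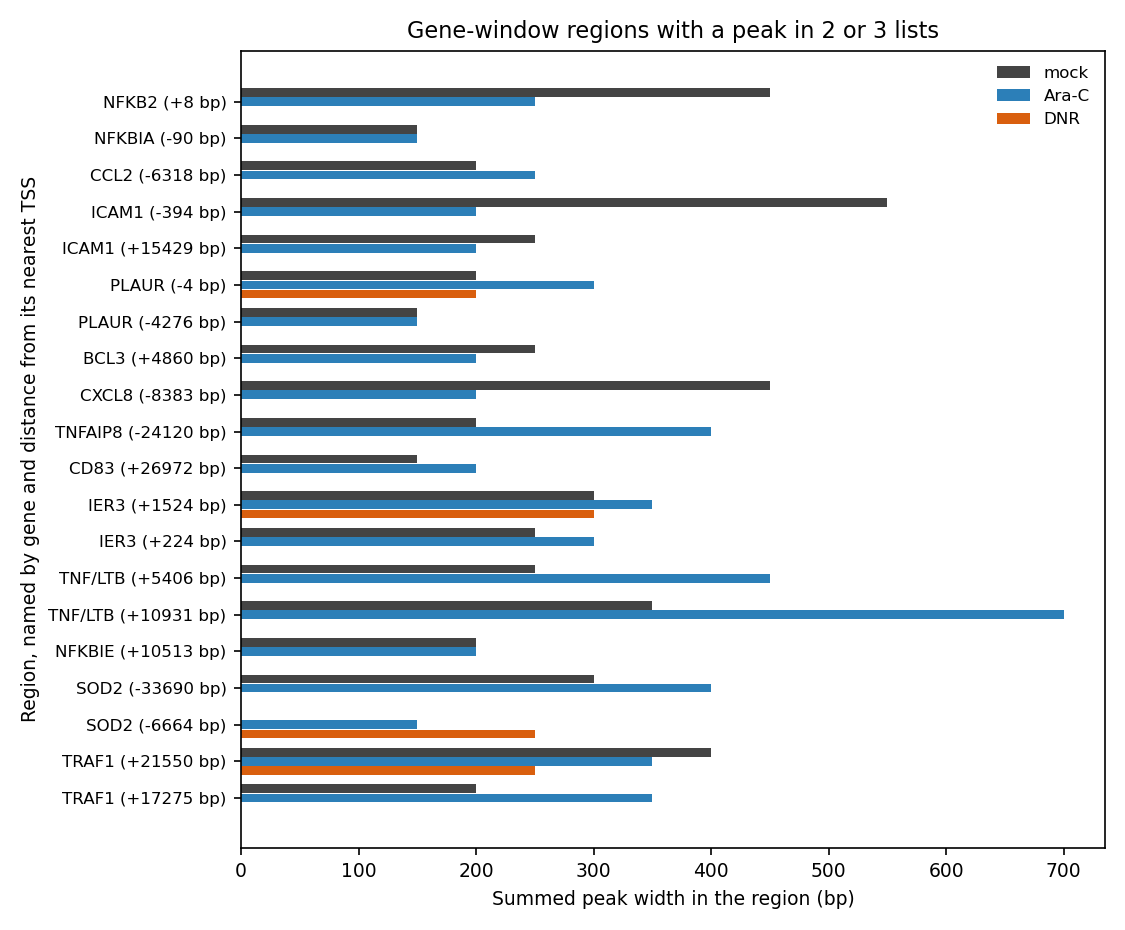
Peak width summed over regions that had a peak in at least 2 lists, in bp, one group of bars per region named by its gene and the distance of its midpoint from the nearest TSS; colours give the list. One of the 21 regions, with mock and Ara-C peaks, is not drawn. Of the 20 drawn, 16 have a mock and an Ara-C bar without a DNR bar, and DNR bars appear at PLAUR, IER3, SOD2 and TRAF1.

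Matches to the NF-kB consensus were counted in the peaks, as a description that neither shows binding nor a cause. In TSS-window peaks of the set 4 of 19 in mock (21.1%, interval 8.51 to 43.3) and 4 of 14 under Ara-C (28.6%, interval 11.7 to 54.6) had a match, against 9.78% and 9.37% of the TSS-window peaks of coding genes. None of the 5 DNR peaks had one, beside 7.5%, and with 5 peaks a share of up to 43.4% is allowed. The coding share lay inside the interval in mock and below it under Ara-C. The genes themselves are rich in the motif, since 10.3% of the 200 bp tiles of their TSS windows had a match against 6.22% for coding genes. RefSeq promoters of GRCh38.p14 were matched for 31 of the 38 genes, and 18 of them (58.1%) held a match, beside 16% of 15281 coding promoters. Neither excess is independent of the choice of genes, which were listed as NF-kB and inflammatory response genes. The match was found in promoters with and without a mock peak, since 8 of 12 with a mock TSS-window peak and 10 of 19 without one had it.

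Regions of the set with peaks in 2 or 3 lists held a match in 6 of 21 cases (28.6%, interval 13.8 to 50), against 8 of 139 (5.76%, interval 2.94 to 10.9) for regions of 1 list. The former were longer, 400 against 200 bp at the median, so that length moved with the difference and its part was not tested. The same count was not made for the regions of all coding genes, so the difference cannot be read as a trait of the set. The CTCF core consensus had no match in the 19 mock, 14 Ara-C and 5 DNR TSS-window peaks of the set, beside 1.89%, 1.58% and 0.826% for coding genes. Shares of up to 16.8%, 21.5% and 43.4% are allowed, so the peaks are too few to read a difference. None of the 754 tiles of the TSS windows of the set had a match, against 0.081% for coding genes. The match at NFKB2 needs 1 mismatch, and with 1 mismatch allowed 1 of the 19 mock peaks (5.26%, coding genes 8.04%) and 1 of the 14 Ara-C peaks (7.14%, coding genes 6.02%) held a match. A full match was found in 1 gene-window peak, an Ara-C peak 3′ of CD83.

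The 44 other genes of the pathway, its receptors, adaptors, kinases and ubiquitin enzymes, were counted in the same way. A TSS-window peak was found for 21 in mock (47.7%, interval 33.8 to 62.1), 17 under Ara-C (38.6%, interval 25.7 to 53.4) and 2 under DNR (4.55%, interval 1.26 to 15.1), against the coding shares of 25.3%, 30.8% and 8.42%. In mock the interval lies above the coding share, and under the drugs it contains it. The 2 genes under DNR were TRAF2, an adaptor with an Ara-C peak of 250 bp and a DNR peak of 200 bp, and TNFRSF1B, a receptor for tumour necrosis factor with a mock peak of 150 bp and a DNR peak of 200 bp. TNFRSF1A, the other receptor, had a mock peak of 400 bp and no drug peak in its TSS window, and the ubiquitin enzyme gene OTULIN had 300 bp in mock and 450 bp under Ara-C. RBCK1, a subunit of the linear ubiquitin ligase, had 200 and 450 bp.

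As a check of the cell type, the gene windows of 8 promyelocytic genes such as MPO and ELANE had mock peaks in 8, Ara-C peaks in 7 and DNR peaks in 7 genes, beside 65.0%, 75.3% and 49.7% of coding genes. For 8 genes of other cell types the number was 4 in each list. ELANE, AZU1 and PRTN3 are neighbours and can share peaks, and peak positions do not measure expression, so these counts do not settle the cell type.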

How the data were processed

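The authors sequenced single-end ChIP reads of the 3 SUMO-2/3 libraries, aligned them to hg19 with CASAVA 1.8.2, and with Pasha kept uniquely placed reads, extended them, binned them at 50 bp, scaled the libraries and subtracted input. Pile-up and extension settings differed between libraries. Peaks were runs above a fixed signal of 32 with gaps of up to 100 bp. The deposited files hold chromosome, start and end, with no score or coverage for a peak, and the 3 inputs were not analysed here.

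Genes came from GENCODE 44 lifted to GRCh37, with 55871 basic protein-coding TSSs. Peaks overlapped with at least 1 bp. Shares carry 95% Wilson intervals and densities exact Poisson intervals. With 1 library per condition conditions were compared without a test. The intersection steps were tested on simulated data. Motifs were the NF-kB consensus and the CTCF core consensus on both strands of GRCh37. Gene lists and comparisons were chosen with earlier results of these data known. Every gene of the set is named. TSS-window peaks are described singly. Other gene-window peaks are given by number, in the text or the plot of peaks per gene, with examples, fewer than the rule for named genes foresaw. The upstream NFKB2 sequence, with its CTCF match, was picked after its letters were seen. One region is not reported here. Python 3.11.15, numpy 2.4.6, pandas 2.3.3, scipy 1.17.1 and matplotlib 3.10.9 were used.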

Additional observations from a re-analysis of the deposited data

How the results depend on the processing

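No paired analysis was possible because a condition was 1 pooled library, so leaving out a replicate could not be done either. Depth is unknown, and the lists limit strength to peak width. Over 11 alternatives, 157 values of 28 results were computed, of which 17 moved, 4 changed sign and 136 stayed within 1.5 times (counts) or within the counting interval (shares, densities and differences), which for small numbers is wide. The mock excess over coding genes ran from 6.19 to 15.8 points. Mock peaks found again within 500 bp reached 47.4% for Ara-C and 15.8% for DNR, and 1 mismatch raised the NF-kB share of the 5 DNR peaks from 0 to 40% (coding genes 53.2%). Restricting to peaks of at least 200 bp gave 9 genes with a mock TSS-window peak (coding genes 17.5%), 10 with a DNR gene-window peak (coding genes 30.4%), 13 (mock, coding genes 17.5%) and 11 (Ara-C, coding genes 21.6%) of the 44 wider pathway genes, and 2.62, 3.58 and 0.768 peaks per 100 kb in mock, Ara-C and DNR (coding genes 0.917, 1.46 and 0.56). Fewer peaks remain by construction. With 500 bp on each side of the TSS, 2 genes had a DNR peak (coding genes 4.04%). Without flanks 20 genes had an Ara-C peak (coding genes 58.2%), and with 50 kb flanks 29 had a DNR peak (coding genes 73.3%). With every annotated transcript 11 of 18 genes with a mock peak also had an Ara-C peak (coding genes 68.5%). Allowing 1 mismatch in the NF-kB consensus raised the share of peaks with a match to 84.2% in mock and 78.6% under Ara-C, beside 62.2% and 60.9% for coding genes. The DNR count of wider pathway genes was 1 with the promoter window (coding genes 6%), 1 with 500 bp on each side (4.04% of coding genes), 1 with the 5′ ends alone (coding genes 6.48%) and 9 of 44 with every transcript (coding genes 14.9%), where the direction against coding genes turned. The Ara-C difference from coding genes changed from -1.9 points to 2.06 (at least 200 bp), 3.62 (500 bp) and 2.99 (every transcript), and the DNR difference from 2.11 to -1.79 (every transcript). The cause was not tested.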

Other observations

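The surroundings of NFKB2, 250 kb on each side of its 5′ end, held 18 mock peaks (3.6 per 100 kb, exact Poisson interval 2.13 to 5.69), 30 Ara-C peaks (6 per 100 kb, interval 4.05 to 8.57) and 6 DNR peaks (1.2 per 100 kb, interval 0.44 to 2.61). The genome as a whole had 1.55, 2.53 and 1.17 per 100 kb. Of the 18 mock peaks, 9 overlapped an Ara-C peak and none overlapped a DNR peak, where the shares for mock peaks in the gene windows of coding genes were 18.2% and 3.05%. The sites in mock and Ara-C included those near the TSSs of NOLC1, FBXL15 with PSD, and TRIM8.

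In the CXCL cluster on chromosome 4, from 10 kb upstream of CXCL8 to 10 kb beyond CXCL2, there were 4 peaks in mock, 10 with Ara-C and 3 with DNR (1.06, 2.64 and 0.792 per 100 kb), with intervals that contain the genome densities.

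The median GC content of the TSS windows was 51.4% for the 15 genes with a mock peak there and 50% for the 23 without.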
